A study of Gallus gallus with 16 samples.

Results

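The data were read counts per gene from chick vagal neural crest in which sox3 had been targeted with CRISPR/Cas9, set against the same cells carrying Cas9 alone. The comparison rests on 4 of the 16 libraries of the study, 2 from sox3 targeting and 2 from the Cas9 control, chosen by their labels and not by any measured value. It was made over 14081 expressed genes of the 24881 in the table. The question was which transcripts differed between sox3 targeting and the control, and which of those differences were shared with a signal on chromosome 14 that was also high after sox10 targeting. That signal was known from earlier results of these data when the question was set.

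SOX3 is a SOXB1 transcription factor with an HMG box that binds DNA, known in vertebrate embryos for its expression in neural progenitors. The neural crest forms at the border of the neural plate, leaves the dorsal neural tube and migrates. Enteric neurons and parts of the heart derive from its vagal portion. Cas9 directed by a guide RNA cuts its target, and repair of the cut can disrupt the gene. Globins are the oxygen-carrying proteins of red blood cells and serve as marker transcripts of blood.

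All groups were wild-type chick embryos at Hamburger and Hamilton stage 18 that had been electroporated with a pCAG plasmid for Cas9-2A-Citrine, so the control cells also expressed Cas9 and the fluorescent protein Citrine. The sox3 embryos also received 2 guide plasmids against sox3 and the control received 0. The groups used beside them were msx1 (1 guide plasmid), sox10 (2), tfap2b (2) and a double group with 3, namely the tfap2b pair and a single sox10 guide, each with 3 libraries. Citrine-positive cells were sorted from dissociated vagal regions, while the text on extraction names pieces of dorsal neural tube. Sorted cells carry the plasmids, but nothing in the labels gives the share of cells with a disrupted gene, so each library may mix edited and unedited cells. Nothing in the labels ties a library to its own embryo, pool or day, so the p-values measure the spread between these libraries, which may be technical. The gene IDs carry no symbols, and none of the 24881 matched the reference table used here. The transcript of sox3 itself and markers of neural crest, blood or other cells were therefore not analysed here, and genes are given by ID and galGal5 position without a name or role.

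The control libraries held 19355001 and 22142722 counts and the sox3 libraries 6049569 and 14947150, within the range of all 16 libraries (5721022 to 24929531). Sox3 replicate 1 was the shallower of its pair, with a count in 14528 genes against 15245 in sox3 replicate 2, and 15403 and 15491 in the control. The replicates of both groups lay close to each other. Over 9534 genes averaging 5 CPM or more (counts scaled by library size, with TMM factors), the median absolute log2 difference within a pair was 0.154 for sox3 and 0.156 for the control. The 12 other within-group pairs of libraries ranged from 0.187 to 0.713. The sox3 and control means differed by a median of 0.322 on the same scale. The common biological coefficient of variation was 0.478 over all 16 libraries (10 residual degrees of freedom) and 0.125 for the sox3 and control libraries alone (2 residual degrees of freedom). Both values are summaries. The tests below use a spread estimated for each gene in the fit over all 16 libraries, unless another fit is named.

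Between sox3 targeting and the control, the genes past the threshold in the chosen fit were mostly higher in sox3. Limma-voom and the fit of the sox3 and control libraries alone did not share this split. In the edgeR quasi-likelihood test, Benjamini-Hochberg adjusted over all genes, 91 genes passed an adjusted p of 0.05, 0.646% of those tested. Of these, 81 were higher in sox3 (0.575%) and 10 lower (0.071%), and in none of the 91 did the sox3 and control libraries overlap. Both sox3 libraries lay above both controls in 3919 genes (27.8%) and below both in 5377 (38.2%). The higher genes differed by 1.08 to 10.48 on the log2 scale, with a median of 2.99, a 7.96-fold difference. The lower genes ranged from -1.12 to -3.29, with a median of -1.74. Over all genes tested the median was -0.07, with 5th and 95th percentiles of -1.49 and 1.97, and 1120 genes had an unadjusted p under 0.05. Without control replicate 1 or control replicate 2 only 7 and 5 genes passed, and without sox3 replicate 1 or 2 there were 20 and 21, while leaving out sox10 replicate 1 raised the count to 149. The count also depended on the spread estimate: it was 4265 (2152 higher and 2113 lower) with the sox3 and control libraries fitted alone, 4228 (1800 higher and 2428 lower) with limma-voom, 353 (269 higher and 84 lower) with DESeq2 and 1 with the close pairs summed into single libraries.

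**Figure D1:**
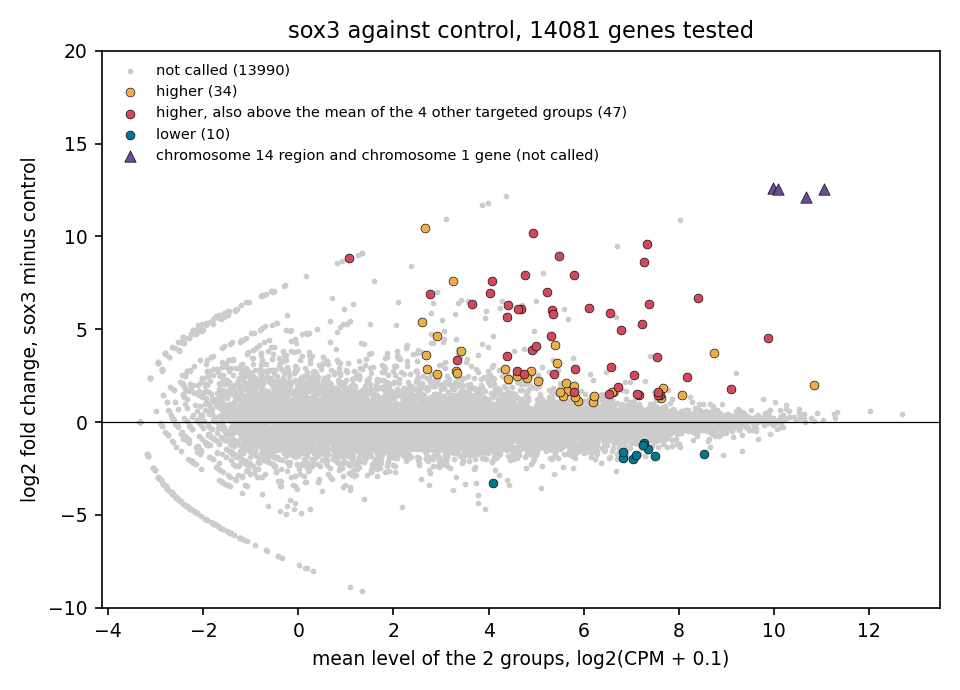
Log2 fold change of sox3 minus control (vertical) against the mean level of both groups as log2(CPM + 0.1) (horizontal), 1 point per gene tested. Coloured points are the 91 genes that passed the test and purple triangles the chromosome 14 region and the chromosome 1 gene, which lie at the top right with log2 fold changes of 12.13 to 12.63 and did not pass in this fit, though they did with DESeq2, limma-voom and the sox3 and control libraries alone.

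The gains reached across the range of control levels, whereas the called losses concerned well-expressed genes. This contrast is partly set by the count floor, since a gene under 1 CPM in the control could hardly be called lower. Of the 81 higher genes, 21 had a control mean under 1 CPM, 47 lay between 1 and 50 CPM and 13 were at 50 CPM or more. These are 0.962%, 0.627% and 0.295% of the tested genes in those ranges. Of the 21, 20 reached at least 5 CPM in sox3. Among the 10 lower genes, 9 had a control mean of at least 50 CPM and the other lay between 1 and 50 CPM, 0.204% and 0.0133% of the genes in those ranges. The median group mean of the higher genes was 6.94 CPM in the control and 79.5 CPM in sox3. For the lower genes it was 212 CPM in the control and 71 CPM in sox3.

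From earlier results of these data, the chromosome 14 region was named as a blood-like globin signal. That description could not be checked here because the region's genes carry no names. Its high level in sox10 was known when it was named, so the levels below are a description and no separate evidence. Of the region's 4 genes, 3 were tested, and the fourth, ENSGALG00000032560, overlaps ENSGALG00000023740 and had 1 count over all libraries. For the tested genes together, the level in sox3 was 12121 and 7339 CPM where the control had 1.59 and 1.99 CPM. It ranged from 9654 to 17757 CPM in sox10, from 2145 to 5707 CPM in tfap2b, from 46.9 to 3099 CPM in the double group and from 5.95 to 579 CPM in msx1. The sox3 libraries thus lay far above both control libraries, above every msx1, tfap2b and double library and, in the case of sox3 replicate 1, within the sox10 range. In bulk libraries, fewer cells of a type and less RNA per cell cannot be told apart, and the same holds for more of either.

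**Figure D2:**
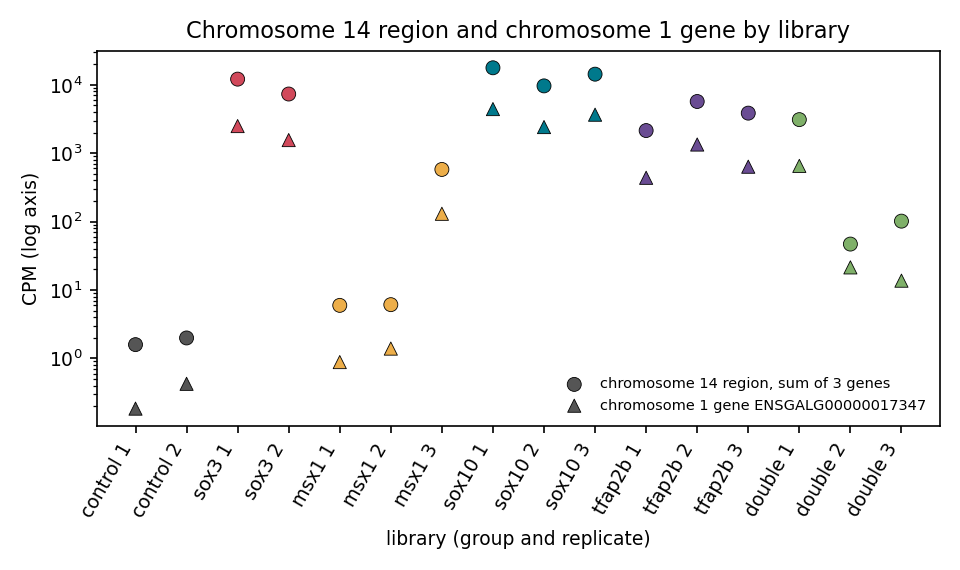
Summed level of the 3 tested genes of the chromosome 14 region (circles) and level of the chromosome 1 gene ENSGALG00000017347 (triangles) in each library, in CPM on a log axis, coloured by group. Both controls lie under 2 CPM for the region, and the sox3 libraries lie at 7339 and 12121 CPM, near the sox10 libraries.

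By gene, ENSGALG00000043234 (chromosome 14, from 12163617 in the galGal5 coordinates of the deposited table, 3 exons) stood at 0.598 and 0.771 CPM in the control and at 5387 and 3137 CPM in sox3. Its log2 fold change was 12.58 ± 3.35 (SE), with an adjusted p of 0.191 in the Benjamini-Hochberg adjusted edgeR quasi-likelihood test. ENSGALG00000023740 (ending at 12158534, 4 exons) gave 12.13 ± 3.09 (adjusted p = 0.166 in the same edgeR test) and ENSGALG00000031597 (12160597 to 12161521, 3 exons) gave 12.53 ± 3.50 (adjusted p = 0.219, same edgeR test). The groups did not overlap for any of them, and none passed in this fit over all 16 libraries.

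ENSGALG00000017347 (chromosome 1, 194562710 to 194576539, 6 exons, overlapping another gene) had been singled out together with the region from earlier results of these data. Its level was 0.184 and 0.424 CPM in the control and 2495 and 1557 CPM in sox3, a log2 fold change of 12.63 ± 3.31 (adjusted p = 0.181 in the Benjamini-Hochberg adjusted edgeR quasi-likelihood test). Against sox10 the same gene differed by -0.79 ± 1.82 (adjusted p = 0.766, same edgeR test), and the region's genes by -0.47 to -0.55.

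The 4 genes were chosen from earlier results of these data, so their p-values are no separate evidence. The call on these 4 genes depended on the fit. All of them passed against the control with DESeq2 (adjusted p 2.59e-09 to 1.14e-07), with limma-voom (0.00148 to 0.0027) and in the edgeR fit of the sox3 and control libraries alone (6.9e-12 to 1.8e-11). They also passed in the edgeR fit without msx1 replicate 3 (adjusted p 0.0263 to 0.0415), the msx1 library at 579 CPM for the region. Without double replicate 1, ENSGALG00000023740 passed (adjusted p = 0.0434, edgeR), and without robust estimation ENSGALG00000023740, ENSGALG00000043234 and ENSGALG00000017347 did (0.0399, 0.0481 and 0.045).

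To separate genes that move with the region, each gene's level was correlated with the region's over the 12 msx1, sox10, tfap2b and double libraries. Group means were subtracted first, and neither sox3 nor control libraries entered. Within groups the region's level varied most in msx1 (5.95, 6.10 and 579 CPM) and the double group (3099, 46.9 and 102 CPM). A high r therefore leans mainly on msx1 replicate 3 and double replicate 1. As a description over these 12 libraries, which share sorting and library preparation, 120 genes (0.852%) had an r of at least 0.7 and 54 (0.383%) an r of -0.7 or less. Neither set was shifted as a whole between sox3 and control. The median log2 fold change was -0.12 for the 120 genes, 0.06 for the 54 and -0.07 for the 13907 others. A log2 fold change above 3 was reached by 13 of the 120 (10.8%), 3 of the 54 (5.56%) and 316 of the others (2.27%). The 13 include the genes of the region and the chromosome 1 gene themselves.

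Of the 91 genes that passed the test, 5 followed the region in this sense, 3 upwards and 2 downwards, and they are named here after their values were seen. Subtracting group means leaves out differences between groups, such as the high level of the region in sox10. Without that step more of the 91 followed the region, as given with the alternatives below. ENSGALG00000033428 (chromosome 2, 123250307 to 123260107, 4 exons, r = 0.947) had 0.276 and 0.540 CPM in the control against 329 and 313 CPM in sox3. Its sox10 libraries held 379, 99.8 and 87.7 CPM, while msx1 ranged from 0.514 to 10 CPM. The sox3 libraries thus lay inside the sox10 range and above every msx1, tfap2b and double library. The log2 fold change against the control was 9.57 ± 1.98 with an adjusted p of 0.0458 in the Benjamini-Hochberg adjusted edgeR quasi-likelihood test. The call was lost in 11 of 27 alternatives, among them without either control library (adjusted p 0.761 and 0.63), either sox3 library (0.159 and 0.172) or tfap2b replicate 1 or 3 (0.0569 and 0.0608).

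A like profile was seen in ENSGALG00000009552 (chromosome 5, 28954862 to 28959674, r = 0.836), with 2.94 and 3.28 CPM in the control, 197 and 173 CPM in sox3 and 158 to 398 CPM in sox10. ENSGALG00000003212 (chromosome 26, 4699001 to 4704104, overlapping another gene, r = 0.86) had 5.06 and 7.98 CPM in the control, 677 and 668 CPM in sox3 and 431 to 1272 CPM in sox10. For both, sox3 and control did not overlap and sox3 lay within the sox10 range. The log2 fold changes against the control were 5.89 ± 0.79 and 6.68 ± 1.18 (adjusted p 0.00219 and 0.0183 in the Benjamini-Hochberg adjusted edgeR quasi-likelihood test). Leaving out control replicate 1 or 2 ended both calls (adjusted p 0.101 and 0.123 for the first, 0.553 and 0.397 for the second), and the second was also lost without sox3 replicate 1 or 2 (0.0913 and 0.0989).

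ENSGALG00000034478 (chromosome 19, 389572 to 391141) ran the other way, with r = -0.813 but a higher level in sox3. It stood at 0.092 and 0.116 CPM in the control and 12.5 and 14.1 CPM in sox3, against 0 to 0.257 CPM in sox10 and 0.685 to 3.53 CPM in msx1. The sox3 libraries were above all others. Its log2 fold change was 6.88 ± 1.42 (adjusted p = 0.0367 in the Benjamini-Hochberg adjusted edgeR quasi-likelihood test), with the call lost without control replicate 1 or 2 (0.634 and 0.526), sox3 replicate 1 or 2 (0.159 and 0.211), msx1 replicate 1 or 2 (0.062 and 0.0657) or double replicate 2 (0.0507). The other gene of this kind, ENSGALG00000006130, was lower in sox3 and is described with the losses.

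**Figure D3:**
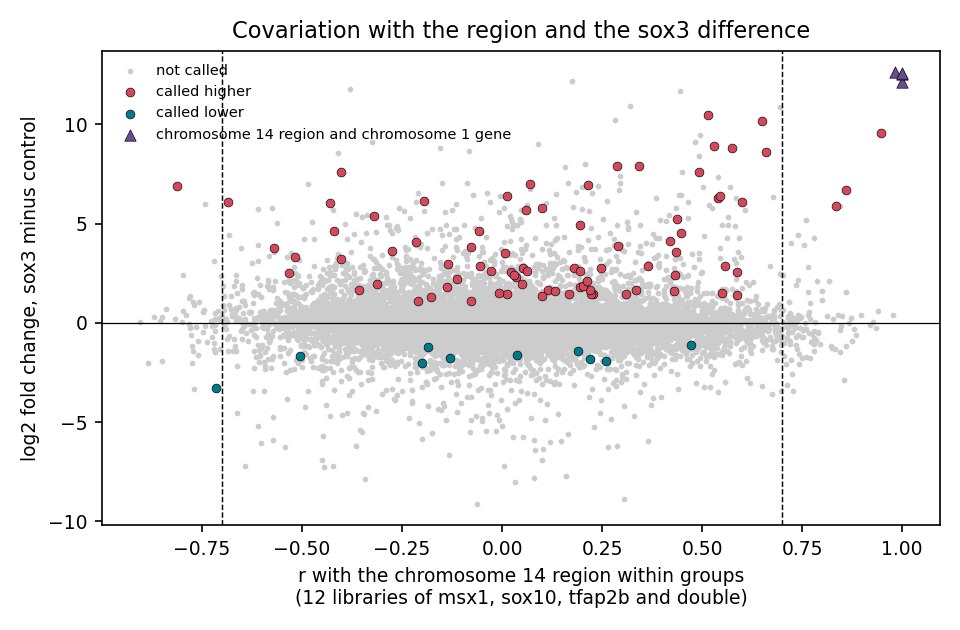
Log2 fold change of sox3 minus control (vertical) against the correlation of each gene with the chromosome 14 region within groups, over 12 libraries that are neither sox3 nor control (horizontal). Dashed lines mark r of -0.7 and 0.7, and of the 91 genes that passed the test (coloured) 86 lie between them.

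Adding the region's level in each library to the model gave a second view. With this covariate 0 genes (0%) passed for sox3 against the control in the Benjamini-Hochberg adjusted edgeR quasi-likelihood test, the smallest adjusted p being 0.0721. An unadjusted p under 0.05 was found for 490 genes, and DESeq2 and limma-voom called 29 and 526 with the same covariate. All 81 higher genes and all 10 lower genes kept their sign, with median log2 fold changes of 2.54 and -1.66. The sign was also kept in 10519 of all 14081 genes tested. The called genes were chosen for their differences in the same libraries, which favours a kept sign. The control and sox3 libraries do not overlap in the region's level, and standard errors differed between the fits. That of ENSGALG00000031149 went from 0.50 to 0.94 while its log2 fold change went from 6.16 to 6.53, and a loss of calls in this fit does not show that the differences follow the region. Without tfap2b replicate 2, 5 genes passed.

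Most of the 81 higher genes were above the control in the other targeted groups as well. These groups share the control, so their values are given side by side and not as separate evidence. The median log2 difference to the control over the 81 genes was 2.98 in sox3 (quartiles 1.88 and 5.83), 2.81 in sox10 (1.52 and 4.01), 1.86 in tfap2b (0.98 and 2.94), 1.77 in the double group (1 and 2.97) and 1.52 in msx1 (0.47 and 2.31). The control had the lowest of the 6 group means in 62 of the 81 genes, against 2530 of all genes tested. Sox3 had the highest mean in 43 of the 81 and sox10 in 23, against 1281 and 3365 of all 14081 genes tested. Choosing the 81 as higher in sox3 than in the control favours a low control mean and a high sox3 mean.

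Direct comparisons of sox3 with each other targeted group divided the 81 genes further. Against sox10, where 37.5% of all genes passed (21.6% higher and 15.9% lower in sox3), 26 of the 81 were higher in sox3, 10 were lower and 45 did not pass. Against msx1, where 0.433% of all genes passed (0.419% higher and 0.0142% lower in sox3), 31 were higher and none lower. Against tfap2b (29.5% of all genes, 15.8% higher and 13.8% lower) 42 were higher and 3 lower, and against the double group (28%, 15.2% higher and 12.8% lower) 44 were higher and 5 lower. The 81 were chosen as higher in the same sox3 libraries, which favours calls as higher in sox3, so these counts are no separate evidence. A gene that did not pass against sox10 is not thereby shown to be equal in both groups.

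**Figure D4:**
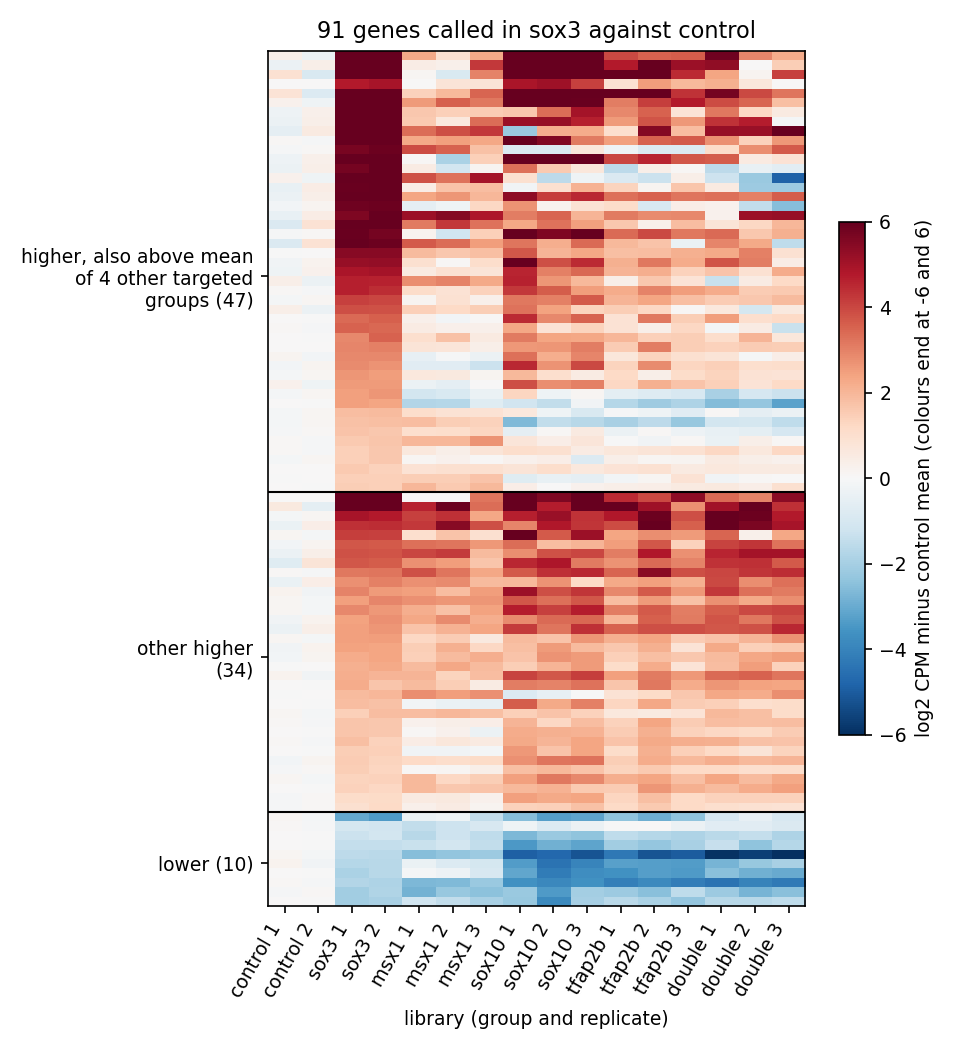
Level of the 91 genes that passed against the control (1 line each) in each of the 16 libraries, as log2 CPM minus the control mean, with colours ending at -6 and 6. The upper block holds 47 genes also above the mean of the 4 other targeted groups, the middle block the 34 other higher genes and the lower block the 10 lower genes, for which the control has the highest group mean.

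Some of the genes with the largest fold changes were also high in sox10. ENSGALG00000029375 (chromosome 8, 28469647 to 28479499, 4 exons) had 0 counts in both control libraries and 11.2 and 14 CPM in sox3, at least 209-fold higher against a floor of 3 counts over the control group. Its sox10 libraries held 18.3, 6.71 and 8.61 CPM, and its tfap2b libraries 2.08 to 5.70 CPM. The sox3 libraries therefore exceeded the control and lay among the sox10 libraries. Against the control the adjusted p was 0.0359 and against sox10 it was 0.923 in the Benjamini-Hochberg adjusted edgeR quasi-likelihood test, with a fitted log2 difference to sox10 of 0.17 ± 1.13. The call against the control was lost without control replicate 1 or 2 (0.534 and 0.484) and without sox3 replicate 1 or 2 (0.112 and 0.141).

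ENSGALG00000016498 (chromosome 3, 104544323 to 104575302, 14 exons) held 0.092 and 0 CPM in the control and 57.5 and 63.8 CPM in sox3. With 2 counts in the control the ratio was 1478 (95% exact binomial interval 409 to 12218, counting error only). Msx1 ranged from 0.206 to 0.735 CPM, tfap2b from 1.98 to 2.67 CPM, the double group from 0.707 to 10.3 CPM and sox10 from 14.1 to 48.9 CPM, so both sox3 libraries were above all others. In the Benjamini-Hochberg adjusted edgeR quasi-likelihood test, the adjusted p was 0.00363 against the control and 0.00506 against msx1, and 0.43 against sox10. It also passed against the mean of the 4 other targeted groups, with a log2 fold change of 4.09 ± 0.57 (adjusted p = 0.000135, same edgeR test). The control call was lost without control replicate 1 or 2 (0.0961 and 0.165) and the msx1 call without msx1 replicate 2 (0.054).

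ENSGALG00000015544 (chromosome Z, 65124989 to 65133725, 9 exons) was at 0.368 and 0 CPM in the control and 89.8 and 88.7 CPM in sox3. It was at 0 to 1.99 CPM in msx1 and at 163, 38.1 and 20.2 CPM in sox10. Sox3 lay above msx1 throughout and within the wide sox10 range. Its log2 fold change against msx1 was 6.72 ± 1.36 (adjusted p = 0.0381 in the Benjamini-Hochberg adjusted edgeR quasi-likelihood test) and against sox10 0.28 ± 1.13 (adjusted p = 0.868, same edgeR test). Against the mean of the 4 other targeted groups it was 3.69 ± 0.77 (adjusted p = 0.00237, same edgeR test). The msx1 call did not hold without control replicate 1 or 2 (0.0516 and 0.0511), sox3 replicate 1 or 2 (0.204 and 0.169), msx1 replicate 1 or 2 (0.283 and 0.186), tfap2b replicate 1 (0.0539) or double replicate 1 (0.053).

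The gains that also exceeded the mean of the 4 other targeted groups formed a smaller set. Sox3 against the mean of the 4 other targeted groups called 4036 genes (28.7%), 2409 higher (17.1%) and 1627 lower (11.6%). Most of these were not among the 91. The genes that passed in both comparisons in the same direction were 47 higher (0.334%) and 1 lower (0.0071%). Their median group means were 89.2 CPM in sox3, 47.1 CPM in sox10, 22 CPM in tfap2b, 14.8 CPM in the double group, 9.94 CPM in msx1 and 3.54 CPM in the control. With sox3 left out, sox10 was the highest of the other groups in 30 of the 47 genes and msx1 in 13. Sox3 itself was not the highest group in every one of the 47. ENSGALG00000009552, for example, had a mean of 294 CPM in sox10 and 185 CPM in sox3. As higher than sox10 itself 25 of the 47 passed, while 22 did not pass against it. Of all genes tested, 21.6% passed as higher than sox10. Sox10 is part of the mean that chose the 47, which favours such calls. The 47 include the 3 genes above that follow the region upwards, as well as ENSGALG00000016498 and ENSGALG00000015544. Both sox3 libraries were above all 14 others in 28 of the 47, which was so for 330 of all genes tested (2.34%). The 47 were chosen as higher in sox3 from the same libraries, which favours this contrast, so it is no separate evidence. The total of 48 was 5 without control replicate 1 and 5 without control replicate 2, 16 without either sox3 library and 78 without sox10 replicate 1. The count against the mean was 1707 and 1219 without sox3 replicate 1 and 2.

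The other 34 higher genes were at 10.2 CPM in the control, 68.2 CPM in sox3, 86.7 CPM in sox10, 79.7 CPM in the double group, 46.2 CPM in tfap2b and 39.7 CPM in msx1, again as medians of group means. In 31 of the 34 all 5 targeted groups were above the control, against 2460 of all 14081 genes tested. The 34 passed as above the control and not as above the mean of the other targeted groups, which favours this pattern. Of the 34, 10 were lower in sox3 than in sox10 and 5 were lower than that mean (15.9% and 11.6% of all genes tested).

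The strictest set comprised genes that passed against each of the 5 other groups, 10 higher (0.071%) and 0 lower. No gene passed as lower against each group in edgeR's quasi-likelihood test, while 119 genes (0.845%) had both sox3 libraries below all 14 others. The 10 genes lay on 8 chromosomes, with sox3 means of 24.7 to 488 CPM and r with the region of -0.194 to 0.601. Their number fell to 1 without control replicate 1 or 2, to 3 and 2 without sox3 replicate 1 and 2, to 4 without msx1 replicate 1 or 2 and to 5 without msx1 replicate 3, and it was 18 and 16 without sox10 replicate 1 and 3.

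Among them, ENSGALG00000036805 (chromosome 5, 311493 to 328512, 34 exons, 6888 bp of exons) was nearly confined to the sox3 libraries. It stood at 0.184 and 0.386 CPM in the control and 22.0 and 27.3 CPM in sox3, and at 0 to 3.99 CPM in the 12 remaining libraries, so no library came near the sox3 pair. Its log2 fold change was 6.38 ± 1.39 against the control (adjusted p = 0.048) and 6.23 ± 0.69 against the mean of the other targeted groups (adjusted p = 1.61e-05), both in the Benjamini-Hochberg adjusted edgeR quasi-likelihood test. Against sox10 alone it was 3.73 ± 1.05 (adjusted p = 0.0104, same edgeR test). The control call lay close to the threshold. It was lost without control replicate 1 or 2 (0.761 and 0.526), sox3 replicate 1 or 2 (0.195 and 0.298), any msx1 library (0.057 to 0.0742), tfap2b replicate 3 (0.0595) or double replicate 2 or 3 (0.0634 and 0.058).

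ENSGALG00000031149 (chromosome 26, 2653656 to 2657098, 9 exons), named after its values were seen for its smallest adjusted p, was called under all 27 alternatives. Its level was 1.38 and 2.39 CPM in the control and 136 CPM in both sox3 libraries, with 34.9 to 80.1 CPM in sox10 and 7.53 to 24.2 CPM in the msx1, tfap2b and double libraries. The groups did not overlap. The log2 fold change was 6.16 ± 0.50 against the control (adjusted p = 2.15e-05) and 1.34 ± 0.36 against sox10 (adjusted p = 0.0077) in the Benjamini-Hochberg adjusted edgeR quasi-likelihood test. It was the single gene that passed against the control when the close pairs of libraries were summed (adjusted p = 0.0429, same edgeR test).

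A pair of neighbouring genes at the start of chromosome Z rose together and is also named after its values were seen. ENSGALG00000038461 (380962 to 391867, 12 exons) had 94.5 and 89.6 CPM in the control and 502 and 474 CPM in sox3, and 9.89 to 80.9 CPM in the other targeted groups. ENSGALG00000045784, which starts 1848 bp further on (393715 to 395438, 2 exons), had 36.0 and 41.4 CPM in the control and 213 and 241 CPM in sox3. For both genes the sox3 libraries exceeded every other library, and for the first the control libraries exceeded every library of the other targeted groups. The log2 fold changes against the control were 2.41 ± 0.43 and 2.55 ± 0.45 (adjusted p 0.0155 for both in the Benjamini-Hochberg adjusted edgeR quasi-likelihood test), and against the mean of the other targeted groups 4.09 ± 0.25 and 3.15 ± 0.27 (adjusted p 8.38e-08 and 1.53e-06, same edgeR test). The control calls were lost without control replicate 1 or 2 (0.327 and 0.306 for the first gene, 0.397 and 0.263 for the second) and without sox3 replicate 1 or 2 (0.112 and 0.116, 0.0913 and 0.13).

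ENSGALG00000027874 (chromosome 5, 24438649 to 24440766, 3 exons) was also raised in msx1, to a lower level than in sox3, and was low in sox10. It held 4.69 and 3.24 CPM in the control and 323 and 332 CPM in sox3, with 56.9, 38.8 and 130 CPM in msx1 and 0 to 7.83 CPM in the sox10, tfap2b and double libraries. Sox3 was above all other libraries and msx1 above the control without overlap, though msx1 was not tested against the control here. The log2 fold change was 6.37 ± 1.01 against the control (adjusted p = 0.00712), 6.34 ± 0.85 against sox10 (adjusted p = 4.45e-05) and 2.12 ± 0.72 against msx1 (adjusted p = 0.355) in the Benjamini-Hochberg adjusted edgeR quasi-likelihood test. Without control replicate 1 or 2 the control call was lost (0.212 and 0.237).

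**Figure D5:**
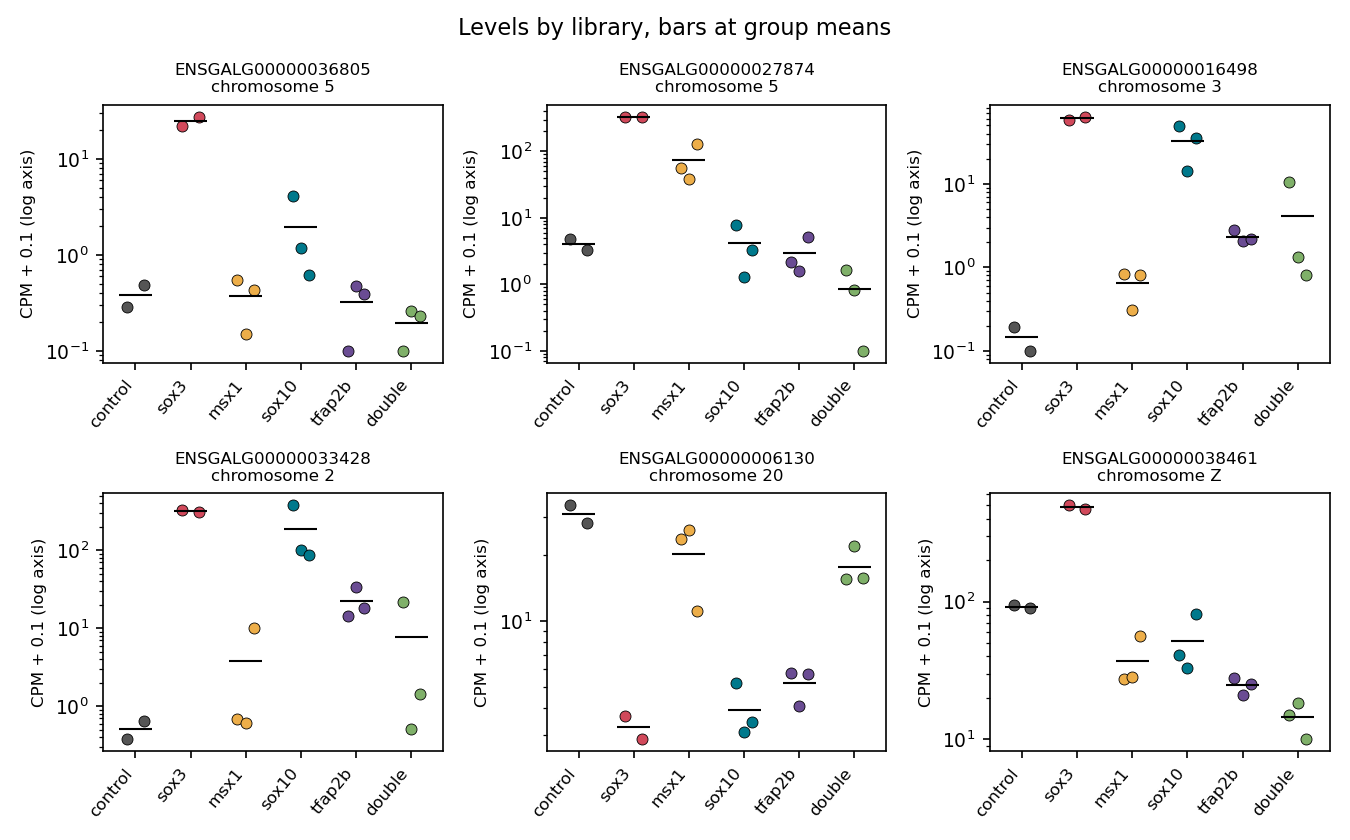
Levels of 6 genes in each library (points) with group means (bars), as CPM + 0.1 on log axes. ENSGALG00000036805 and ENSGALG00000038461 stand apart in sox3, ENSGALG00000027874 is also raised in msx1, ENSGALG00000016498 and ENSGALG00000033428 are also raised in sox10, and ENSGALG00000006130 is low in sox3, sox10 and tfap2b.

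Some of the widest differences from the other targeted groups did not pass against the control. ENSGALG00000019061 (chromosome 1, 182507123 to 182513346, 10 exons, overlapping another gene) had 37.2 and 25.7 CPM in sox3 and 0 counts in every other library except msx1 replicate 1, at 0.882 CPM. It was at least 459-fold higher than the control and at least 225-fold higher than sox10, against a floor of 3 counts over each group. In the Benjamini-Hochberg adjusted edgeR quasi-likelihood test, the adjusted p was 0.104 against the control and 0.00385 against sox10. With DESeq2 the sox10 call was lost (adjusted p = 0.113). Against the mean of the 4 other targeted groups its adjusted p was 0.000313 in the edgeR test and 0.076 with DESeq2. ENSGALG00000010101 (chromosome 8, 20486389 to 20487739, 3 exons) had 19.0 and 21.2 CPM in sox3 and 0 to 0.815 CPM in all 14 other libraries, at least 160-fold above sox10, with an adjusted p of 0.181 against the control and 0.00144 against sox10 in the same edgeR test. By their counts both genes were nearly confined to the sox3 libraries, without which they would not have passed the expression filter. Ranking by fold change among genes without overlap also favours such genes, so this is a description and not separate evidence.

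In the other direction, ENSGALG00000009003 (chromosome 3, 13649735 to 13715095, 8 exons) had 2.83 and 5.37 CPM in sox3, 27.3 and 16.9 CPM in the control and 7.96 to 56.4 CPM elsewhere. ENSGALG00000001136 (chromosome 21, 1399143 to 1400827, 3 exons) had 16.4 and 20.6 CPM in sox3, 53 and 57.6 CPM in the control and 26 to 238 CPM elsewhere. In both the sox3 libraries were the lowest of all. Against the mean of the other targeted groups the log2 fold changes were -2.69 ± 0.74 and -2.35 ± 0.40 (adjusted p 0.0118 and 0.000557), and against the control -2.40 ± 0.82 and -1.58 ± 0.44 (adjusted p 0.317 and 0.166), all in the Benjamini-Hochberg adjusted edgeR quasi-likelihood test. The first call was lost without sox3 replicate 1 or 2 (0.151 and 0.0777).

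Against sox10, with which sox3 shares a high level of the chromosome 14 region, 5277 genes passed, 3038 higher and 2239 lower in sox3. The count was 3359 without sox3 replicate 2. The genes lower in sox3 with the largest fold changes were ENSGALG00000002511 (chromosome 26, 3951941 to 3974291, 31 exons, overlapping another gene) and ENSGALG00000016662 (chromosome 3, 107785815 to 107811652, 6 exons). The first had 1 count in the sox3 libraries together and 4.81, 4.2 and 8.48 CPM in sox10, a ratio of 140 (95% exact binomial interval 25 to 5563). The second had 0.595 and 0.231 CPM in sox3 and 28.3, 6.83 and 3.34 CPM in sox10. Neither overlapped. Their adjusted p values were 0.00666 and 0.0345 in the Benjamini-Hochberg adjusted edgeR quasi-likelihood test. Both calls were lost without sox3 replicate 1 or 2 (0.0629 and 0.0563, 0.122 and 0.216), and the second also without sox10 replicate 1 (0.105).

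For the region, msx1 replicates 1 and 2 were low (5.95 and 6.10 CPM), while msx1 replicate 3 held 579 CPM. Against msx1, 61 genes passed, 59 higher (0.419%) and 2 lower (0.0142%) in sox3. The total was 35 without either control library, 21 and 23 without sox3 replicate 1 and 2, 18 and 21 without msx1 replicate 1 and 2, and 113 without tfap2b replicate 2. Of the 2 lower genes, ENSGALG00000040493 (chromosome 1, 57724423 to 57794404, 5 exons) had 503 and 469 CPM in sox3 and 1031, 1076 and 833 CPM in msx1, with 199 and 296 CPM in the control. Sox3 lay between the groups without overlap. Its log2 fold change was -1.01 ± 0.20 against msx1 (adjusted p = 0.0376) and 0.98 ± 0.22 against the control (adjusted p = 0.0564) in the Benjamini-Hochberg adjusted edgeR quasi-likelihood test. The msx1 call was lost without sox3 replicate 1 or 2 (0.431 and 0.529), msx1 replicate 1 or 2 (0.21 and 0.211) or tfap2b replicate 3 (0.0514).

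The 10 lower genes were called against a control that all groups share, and no other targeted group was tested against that control here. All 10 had their highest group mean in the control, as did 3716 of all genes tested. The choice of these 10 as lower than the control favours this. None of the 10 had both sox3 libraries below all 14 others, which was so for 119 of all genes tested (0.845%). Their median log2 difference to the shared control was -1.73 in sox3, -1.39 in msx1, -3.09 in sox10, -2.35 in tfap2b and -2.08 in the double group. Sox10 had the lowest mean in 5 of the 10 and sox3 in 1, against 4237 and 1247 of all genes tested. Against sox10 itself 6 of the 10 were higher in sox3, 1 was lower and 3 did not pass. Of all genes tested, 21.6% were higher and 15.9% lower in that comparison. Against msx1, where 0.0142% of all genes were lower, 1 was lower and 9 did not pass.

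The gene with the largest loss was ENSGALG00000006130 (chromosome 20, 9900969 to 9911514, 5 exons), with 33.8 and 28 CPM in the control and 3.57 and 2.77 CPM in sox3. It was at 3.00 to 5.09 CPM in sox10 and 3.96 to 5.69 CPM in tfap2b, against 15.4 to 22.0 CPM in the double group and 11 to 26 CPM in msx1. The sox3, sox10 and tfap2b libraries were low and the other 3 groups high, without overlap between these sets. Its r with the region was -0.716. The log2 fold change was -3.29 ± 0.55 against the control (adjusted p = 0.0104), -2.67 ± 0.52 against msx1 (adjusted p = 0.0312) and -1.53 ± 0.44 against the mean of the other targeted groups (adjusted p = 0.0162) in the Benjamini-Hochberg adjusted edgeR quasi-likelihood test. It was the 1 lower gene that passed against both control and that mean. Its control call was lost without control replicate 1 or 2 (0.179 and 0.126) or sox3 replicate 1 or 2 (0.12 and 0.207). Its msx1 call was lost without the same 4 libraries (0.0695, 0.0659, 0.421 and 0.531) and without msx1 replicate 1 or 2 (0.165 and 0.172).

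ENSGALG00000010461 (chromosome 6, 34199151 to 34316515, 18 exons) had 218 and 205 CPM in the control and 50.1 and 54.9 CPM in sox3. In the other targeted groups it lay between 14.7 and 92.3 CPM, so that all targeted libraries were below both controls. The log2 fold change was -2.01 ± 0.44 against the control (adjusted p = 0.048) and -0.12 ± 0.33 against the mean of the other targeted groups (adjusted p = 0.838) in the Benjamini-Hochberg adjusted edgeR quasi-likelihood test. The control call was lost in 14 of 27 alternatives, including each of the 4 fits without a sox3 or control library (0.319 to 0.469), those without msx1 replicate 1 or 2 (0.0637 and 0.0741), tfap2b replicate 1 or 3 (0.0553 and 0.0513) and any double library (0.0643 to 0.0671).

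By position and structure, the higher genes lay on chromosomes 1, 2 and Z among others, and whether they were evenly spread was not tested. Chromosome 1 held 10 of the 81 (1949 genes tested there) and chromosome 2 held 14 (1248 tested). On chromosome Z 7 genes were higher, 1.02% of the 689 tested against 0.575% of all genes tested, and on W none of 23. None of the 567 single-exon genes was called in either direction. The higher genes had a median of 1896 bp of exons and 7 exons, against 1912 bp and 8 over all genes tested. The lower genes had medians of 2410 bp and 14.5 exons. Overlap with another gene was present for 12 of the 81, 0.461% of the tested genes that overlap. The sources used here do not state whether counting used strand, so reads of overlapping genes cannot be told apart with certainty. Among the 91 genes there were 6 pairs of neighbours within 100 kb, including the pair at the start of chromosome Z. ENSGALG00000014675 and ENSGALG00000014673 formed another pair on Z, 18584 bp apart. The spans of ENSGALG00000022622 and ENSGALG00000025929 overlap. The share of such pairs among all genes tested was not computed, so the count alone does not show an excess.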

How the data were processed

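The authors deposited whole-number read counts per gene for 16 libraries, not normalized, with gene spans and exons. The build was galGal5, and featureCounts (Subread 1.4.5), the aligner STAR 2.4.2a and DESeq2 are listed, per the submitters' processing notes. Strand use in counting is not stated in the sources used here. Per the labels' protocols, libraries were made with SMART-Seq v4 and Nextera XT from RNA of integrity above 6 and read as 40 bp pairs, and the titles gave groups and replicates.

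From the counts, edgeR 4.0.16 (limma 3.58.1, R 4.3.3) was run with TMM scaling, the default expression filter, 1 factor for group over all 16 libraries, and the robust quasi-likelihood test with Benjamini-Hochberg adjustment (threshold 0.05), after it had been tested on simulated data. Standard errors are the log2 fold change over the square root of F. CPM are counts scaled to the TMM-adjusted library size. Errors given after ± are SE. Intervals at 95% and floors of 3 counts cover counting error only. A separate fit added the region's log2 level as a covariate. Mitochondrial features were at 0 counts throughout. Total counts of 6049569 to 22142722 in the compared libraries limit precision most in sox3 replicate 1.

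The comparison, its alternatives and all sets of genes were chosen with earlier results of these data known. Named genes are, per comparison and direction, the first 2 by fold change among those past the threshold with at least 5 CPM in 1 group and no overlap between libraries, and the genes of the region. For the former, the absence of overlap in the comparison that named them was set by this choice. Others are marked as chosen after their values were seen. The 15 lists of genes by symbol could not be used, since 0 of 24881 IDs matched the GRCg7b table. Alternatives were RLE scaling, other filters, DESeq2 1.42.0, limma-voom, fewer libraries, a replicate block, no robust estimation, TMM without the following genes, summed close libraries and each library left out.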

Additional observations from a re-analysis of the deposited data

How the results depend on the processing

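Counts of genes past the threshold depended on the test and on the libraries that set the spread, while no named gene changed direction in any alternative. The totals above were 91 against the control, 4036 against the mean of the other targeted groups, 0 with the region covariate, 5277 against sox10, 61 against msx1, 48 for control and mean together and 10 for each of the 5 groups. With DESeq2 they were 353 against the control, 29 with the covariate, 228 against msx1, 124 for control and mean together and 18 for each group. With limma-voom and quality weights they were 4228, 7679 against the mean, 526 with the covariate, 3311 against msx1, 919 for control and mean, and 180 for each group. With only the groups compared in the fit they were 4265 against the control, 3008 against sox10, 733 against msx1 and 437 for control and mean together. With the control, sox3 and msx1 libraries they were 1448 against the control and 1505 against msx1. The 2 sox3 libraries, the 2 controls and msx1 replicates 1 and 2 differed by more than sampling noise, but as an alternative chosen after seeing the data each pair was summed. Then 1 gene passed against the control, 453 against the mean, 2626 against sox10, 0 against msx1, 1 for control and mean, and 0 for each group. With the covariate, 1 gene passed with every counted gene kept and 2 without the sox10 libraries. Leaving out each library in turn, the counts ranged from 5 to 149 against the control, 1219 to 4656 against the mean, 0 to 5 with the covariate, 3359 to 5616 against sox10, 18 to 113 against msx1, 5 to 78 for control and mean, and 1 to 18 for each group. A lone library left in a group is then assumed to vary like the other groups, and the default filter keeps other genes. The 5 called genes following the region became 22 at an r of 0.5 and 1 at 0.9. Their number was 38 without centring on group means and 9 without the double libraries. A lower limit on r also admits more of all the genes tested. The shares of all genes under these settings are not given here, so these counts alone do not show an excess among the called genes.

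The replicate numbers do not pair the samples by any label. The deviations of replicate 1 from replicate 2 correlated at 0.0516 between sox3 and control. With the replicate block, 79 genes passed against the control, 33 against msx1 and 5 against each of the 5 groups. Summing replicates that agree within sampling noise was not run because none did. The covariate was not fitted on the compared groups alone, where the mean of the other targeted groups gave 3606 genes. With 2 libraries a group, small differences and genes near 0 counts could not be resolved at these depths.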

Other observations

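Genes that were nearly silent in the control and present in sox3 give a further view that uses no test. There were 42 tested genes with a mean of at least 5 CPM in sox3 and under 0.5 CPM in the control, 12 of which passed the test against the control, and 1 gene with the opposite pattern. Of the 42, 23 also reached 5 CPM in sox10, 20 in tfap2b, 14 in the double group and 11 in msx1, and 12 reached it in none of these. Over all genes tested the median group mean was 10.9 CPM in sox10, 11.5 in tfap2b, 11.8 in the double group and 17.0 in msx1. The shares among all genes nearly silent in the control are not given here, so these counts show no excess. Genes present in sox3 alone can pass the expression filter through the sox3 libraries, which favours the last count. By the correlation within groups, 4 of the 42 followed the chromosome 14 region upwards, against 120 of all genes tested (0.852%). The 4 include ENSGALG00000031597, a gene of the region itself, and the chromosome 1 gene ENSGALG00000017347.

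Chromosome W is carried by female chicks. The summed level of all its genes, 23 of which were tested, was 324 and 326 CPM in the control and 154 and 140 CPM in sox3. It ranged from 81.2 to 158 CPM in tfap2b, from 201 to 263 CPM in sox10, from 224 to 319 CPM in the double group and from 186 to 708 CPM in msx1. The sox3 libraries lay under every control, msx1, sox10 and double library and within the tfap2b range. The part of the make-up of the embryos in the sox3 differences was not tested.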
